A study of Piaractus mesopotamicus with 9 samples.

Results

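miR-99, miR-100 and miR-125 are 3 conserved microRNAs (miRNAs) that vertebrate genomes carry close to let-7 genes, as members of the same short clusters. miR-99 and miR-100 share a seed, the stretch near the 5′ end that pairs with target mRNAs, and in mammals they are known for repressing mTOR and the IGF1 receptor. miR-125 is the vertebrate counterpart of worm lin-4, and in mouse myoblasts miR-125b is known to restrain differentiation by acting on IGF2. Each hairpin precursor gives a 5p and a 3p arm. For these 3 miRNAs the 5p arm is the guide strand, kept in the silencing complex, and the 3p arm is the passenger strand, most of which is degraded.

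Members were chosen by name alone: every reference entry named for miR-99, miR-100 or miR-125, whatever its species, letter or arm. The reference held mature miRNAs of 13 teleost fishes, so one miRNA can appear under several entries. The table of normalised counts held 64 member entries of 1769. Entries with the same value in all 9 libraries were counted once, under the zebrafish name where there was one, which left 39 distinct profiles of 953. Of these, 12 were miR-99, 15 were miR-100 and 12 were miR-125. The raw table listed 82 member entries, of which 18 had a mean under 10 counts over the 9 libraries and were not tested. Among those 18, 10 had no count in any library (5 cichlid miR-99a entries and 5 3p entries of miR-99 or miR-100), and the other 8, all of the 3p arm, held at most 5 counts in a library.

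The libraries came from primary cultures of fast-twitch muscle cells of juvenile pacu (Piaractus mesopotamicus), an omnivorous South American fish, grown to myotubes by day 8. The 3 groups held 3 libraries each. All began with a medium lacking amino acids: CTR cells stayed in it for 36 hours, AA cells spent 12 hours in it and then 24 hours in a medium with amino acids, and IGF1 cells spent 12 hours in it and then 24 hours with recombinant gilthead sea bream IGF1 and still no amino acids. The sample attributes give 36 hours for CTR and 12 hours for both AA and IGF1. The 12 hours differ from the 24 hours of supplement in the treatment protocol and equal the time before it. AA and CTR differed in the whole medium, not in amino acids alone, and each culture pooled muscle from several fish. The paper describes its cell cultures as independent, and counts as many of them as each group has libraries. With that count, libraries of the same replicate number could come from the same culture. No source used here states which culture gave which library, or whether libraries of the same replicate number shared a culture. The p-values therefore measure the spread between these libraries.

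Counts summed over the 373 zebrafish entries of the raw table ran from 7627252 to 12908097 per library. The muscle list fixed for this check (miR-206, miR-1, miR-499 and miR-133) held 0.0439 to 0.0683% of these counts in CTR, 0.194 to 0.276% in AA and 0.0757 to 0.0851% in IGF1. A smooth muscle and mesenchyme list (miR-143, miR-145, miR-199 and miR-214) held 6.26 to 6.66% in CTR, 6.18 to 7.97% in AA and 5.95 to 7.77% in IGF1. A neural list held 0.196 to 0.214% in CTR, 0.191 to 0.260% in AA and 0.174 to 0.248% in IGF1. The liver, erythroid, leukocyte, endothelial and epithelial lists held less than the muscle list, at most 0.0242% (endothelial in AA). Muscle miRNAs were thus present in all libraries, at a far lower share than the mesenchymal list. In CTR and IGF1 their share was also below that of the neural list. In bulk libraries, fewer cells of a type and less RNA per cell cannot be told apart.

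The guides were among the most abundant miRNAs of these cultures. Read counts here are counts of whole mature miRNAs, so no length scaling was applied, and normalised counts are raw counts divided by the library's size factor. Among 373 zebrafish entries ranked by mean, dre-miR-100-5p was number 5, dre-miR-125b-5p number 8, dre-miR-99 number 23, dre-miR-125c-5p number 44 and dre-miR-125a number 46. Passenger entries stood far lower, the first of them being dre-miR-125b-1-3p, followed by dre-miR-125b-2-3p (number 170) and dre-miR-100-3p. The order of these 8 entries was the same in all 9 libraries except for dre-miR-125c-5p and dre-miR-125a, whose ratio ran from 0.999 to 1.25 and fell below 1 in AA replicate 2. The closest of the other neighbours were dre-miR-125b-2-3p over dre-miR-100-3p (1.2 to 7.86) and dre-miR-100-5p over dre-miR-125b-5p (1.34 to 1.70).

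As a share of zebrafish counts, the 3 miRNAs together held 5.25 ± 0.437% under CTR, 5.24 ± 0.289% in AA and 5.08 ± 0.315% in IGF1 (mean ± SD, n = 3). miR-100 made up 2.88, 2.94 and 2.88% in the 3 groups, miR-125 made up 2.11, 2.02 and 1.94%, and miR-99 made up 0.265, 0.282 and 0.260%. No pair of groups was separated in the summed share. The exact two-sided permutation test gave p = 1.0 for AA against CTR (n = 3 each), and p = 0.6 for each of the other comparisons, in a design whose smallest possible p is 0.1.

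Many of the 39 profiles held nearly equal counts. Profiles of the same number that differed by at most 2% or 2 counts in each library formed 21 groups. The dre-miR-100-5p group held 11 profiles that differed by at most 6 counts, and the dre-miR-99 group held 8 that differed by at most 8. Under miR-125, 13 entries carried exactly the counts of dre-miR-125b-5p and 10 carried those of dre-miR-125a. Letters did not hold across species: the salmon entry ssa-miR-125a-5p carried the zebrafish miR-125b profile, and ssa-miR-125b-5p carried that of the cod entry gmo-miR-125a-5p. One cichlid entry with no arm mark, mze-miR-125c, stayed within 8 counts of dre-miR-125b-1-3p in each library (gap up to 5.59%, on 74 to 255 counts), so it is described with the passengers.

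**Figure D1:**
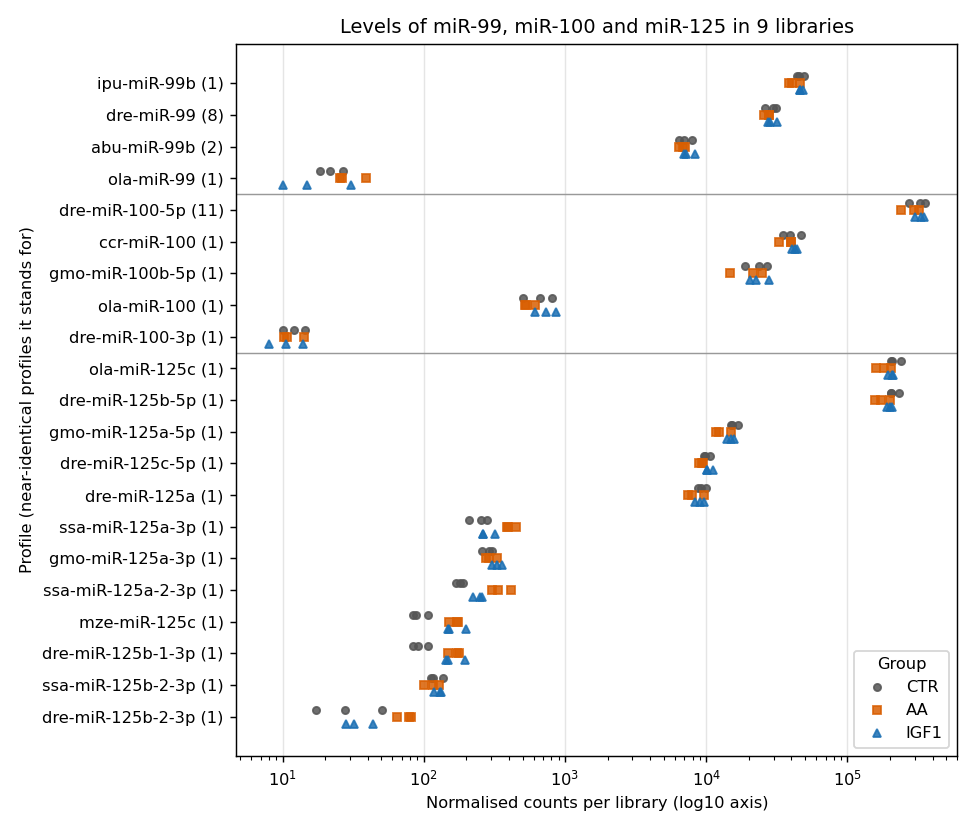
Normalised counts of the 21 groups of near-identical member profiles (log10 axis), 1 point per library, with the number of profiles each name stands for in brackets; circles are CTR, squares AA and triangles IGF1. The dre-miR-100-5p, dre-miR-125b-5p and ola-miR-125c points sit highest in all 9 libraries, from 156960.0 to 352002, while the 3p profiles and mze-miR-125c lie between 8.0 and 450.8.

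No miR-100 guide passed the test in any comparison. The dre-miR-100-5p profile read 271088, 352002 and 323834 normalised counts under CTR, 239178, 321763 and 295635 in AA, and 302439, 330085 and 345994 in IGF1. The groups overlapped in each comparison, and replicate 1 was the lowest library of each group. Its log2 fold change was −0.15 for AA against CTR, 0.04 for IGF1 against CTR and −0.19 for AA against IGF1 (SE 0.12 each). edgeR's Benjamini-Hochberg adjusted p was 0.775, 0.953 and 0.546.

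The cod entry gmo-miR-100b-5p averaged 23167 ± 4066 normalised counts in the CTR libraries, 20341 ± 5164 in the AA libraries and 23530 ± 3859.9 in the IGF1 libraries (SD, n = 3), with overlapping groups. The carp entry ccr-miR-100 and the medaka entry ola-miR-100 averaged 40054 and 648 normalised counts over the 9 libraries. For AA against IGF1 ola-miR-100 gave a log2 difference of −0.40 (SE 0.19, adjusted p by edgeR 0.435), with overlapping groups. The passenger dre-miR-100-3p averaged 12.2 ± 2.17 normalised counts under CTR, 11.7 ± 2.08 in AA and 10.9 ± 3.02 in IGF1, on 7 to 18 raw counts a library. The SE of its log2 fold change was 0.34 for AA against CTR. Across all 15 miR-100 profiles, edgeR called 0 in each comparison, with 0 at an unadjusted p under 0.05, and DESeq2 also called 0. In AA against CTR, IGF1 against CTR and AA against IGF1, edgeR called 2.31, 0.21 and 2.1% of all 953 profiles. DESeq2 called 2.83, 1.15 and 2.94% of them. At an unadjusted p under 0.05 edgeR had 60, 73 and 91 of the 953. With the replicate block 12 miR-100 profiles in AA against CTR and 14 in AA against IGF1 had an unadjusted p under 0.05. IGF1 against CTR had 0. Over all 953 profiles the same fit put 189 (AA against CTR), 139 (IGF1 against CTR) and 233 (AA against IGF1) under 0.05. Of the 15 miR-100 profiles, 11 are the near-identical dre-miR-100-5p group, so they are not separate evidence. In edgeR the block again gave 0 miR-100 calls, beside 3.88, 1.57 and 4.83% of all profiles. The lowest adjusted p of a miR-100 profile with the block was 0.169, 0.671 and 0.0534. In DESeq2 with the block, ola-miR-100 reached an adjusted p of at most 0.05 for AA against IGF1, without a call. For dre-miR-100-5p each AA library lay below the CTR and the IGF1 library of the same number, but without composition factors its log2 fold change for AA against CTR was 0.0331 and for AA against IGF1 0.0307.

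For miR-99, too, no profile passed the test. The dre-miR-99 profile held 31121, 29738 and 26155 normalised counts under CTR, 27702, 27589.7 and 25489 in AA, and 31719.5, 28380.1 and 27365 in IGF1. The groups overlapped throughout, and the log2 fold change was −0.11 for AA against CTR and 0.00 for IGF1 against CTR (SE 0.11, adjusted p by edgeR 0.82 and 0.996). The catfish entry ipu-miR-99b, the most abundant miR-99 reference, averaged 46207 ± 2795 normalised counts in the CTR libraries, 41606 ± 3771 in the AA libraries and 46926 ± 1416 in the IGF1 libraries (SD, n = 3). The remaining miR-99 groups, abu-miR-99b and ola-miR-99, averaged 7114 and 23.7 normalised counts over the 9 libraries. Every AA library of ipu-miR-99b lay below every IGF1 library (highest AA 45771, lowest IGF1 45974). The log2 difference was −0.17 (SE 0.09, adjusted p by edgeR 0.441). Of the 12 miR-99 profiles, edgeR and DESeq2 each called 0 in the 3 comparisons, and edgeR had 0 at an unadjusted p under 0.05. In AA against CTR, IGF1 against CTR and AA against IGF1, edgeR called 2.31, 0.21 and 2.1% of all 953 profiles. DESeq2 called 2.83, 1.15 and 2.94% of them. At an unadjusted p under 0.05 edgeR had 60, 73 and 91 of the 953. With the replicate block 1, 0 and 2 miR-99 profiles had an unadjusted p under 0.05, in the same order. Over all 953 profiles these counts were 189, 139 and 233. The block gave 0 miR-99 calls, beside 3.88, 1.57 and 4.83% of all profiles. The lowest adjusted p of a miR-99 profile with the block was 0.183, 0.629 and 0.106.

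In normalised counts the AA libraries were the lower ones for the miR-125b guide, without a call. The dre-miR-125b-5p profile read 201789, 233041 and 202049 normalised counts under CTR, 156960, 200599 and 174007 in AA, and 190066, 201478 and 205621 in IGF1. Each AA library lay below each CTR library, although AA replicate 2 was nearly level with the lowest of them. As a share of zebrafish counts the groups overlapped. The shares were 1.869, 2.095 and 1.84% under CTR, 1.907, 1.92 and 1.668% in AA, and 1.885, 1.762 and 1.641% in IGF1. The log2 fold change was −0.27 for AA against CTR (SE 0.10), with an adjusted p of 0.318 by edgeR. With the replicate number as a block the adjusted p was 0.0144 at the same size, which is under the log2 minimum of 0.55 that a call required. The medaka entry ola-miR-125c, with similar counts, gave −0.27 (SE 0.10), with an edgeR adjusted p of 0.342 and, with the block, 0.0144. Its AA and CTR libraries overlapped.

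The other miR-125 guides were not called either. The cod entry gmo-miR-125a-5p averaged 15665 ± 1037 normalised counts in the CTR libraries, 12957 ± 1725 in the AA libraries and 14926 ± 933 in the IGF1 libraries (SD, n = 3), a log2 difference of −0.28 for AA against CTR (SE 0.11, adjusted p by edgeR 0.331). For dre-miR-125c-5p the normalised AA counts lay below those of both other groups, at −0.13 against CTR and −0.17 against IGF1 (SE 0.09). As a share of zebrafish counts it held 0.0919 ± 0.00418% in CTR, 0.0962 ± 0.0103% in AA and 0.0932 ± 0.0149% in IGF1. Without composition factors, 2 of the 5 miR-125 guide profiles were above 0 against CTR and all 5 against IGF1. Their median for AA against CTR was −0.08 in that setting, beside −0.27 in the main fit. For dre-miR-125a the groups overlapped, with −0.17 for AA against CTR (SE 0.11).

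In AA against CTR, 12 of the 13 groups of guide profiles had a log2 fold change below 0, beside 543 of all 953 profiles. The median of the 13 groups was −0.16. They are entries of only 3 miRNAs in several species, some with close counts, so they are not 13 separate findings. When no composition factors were used, 8 of 13 were above 0. That setting raised the median of all 953 profiles by 0.20, from −0.04 to 0.16. Over all members the median was −0.11 for AA against CTR, 0.04 for IGF1 against CTR and −0.15 for AA against IGF1, beside −0.04, 0.02 and −0.06 over all profiles.

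**Figure D2:**
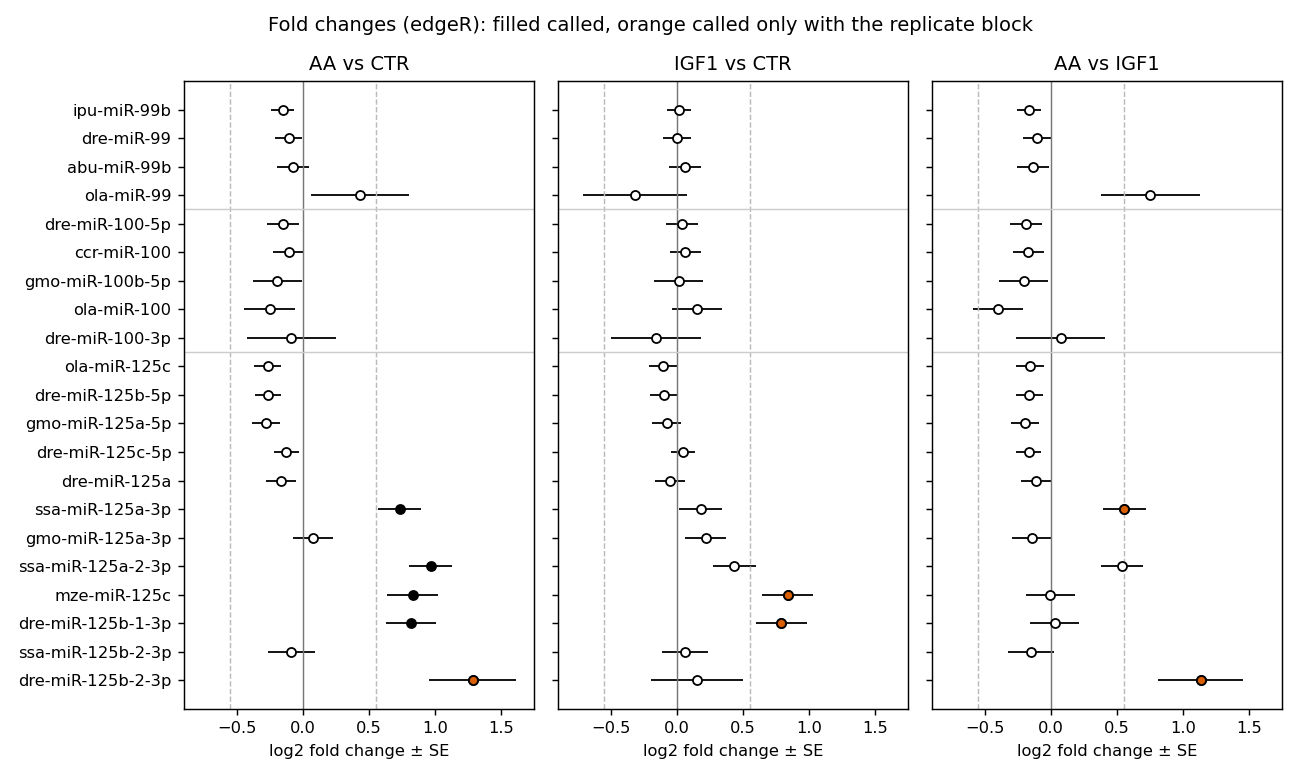
log2 fold change ± SE from edgeR for the 21 groups in 3 comparisons (3 libraries a group). Filled black points passed both thresholds. Orange points did not, but passed them in edgeR with the replicate number as a block. DESeq2 without a block also called some of the orange points. Dashed lines mark the log2 minimum of 0.55 in either direction. The 4 black points all belong to miR-125 in AA against CTR, between 0.73 and 0.97.

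The called differences were in the miR-125 passengers. In AA against CTR, 4 of 39 member profiles passed an adjusted p of 0.05 and a log2 change of 0.55 in edgeR, all 4 higher in AA, where 2.31% of all 953 profiles were called. DESeq2 called 5 members against 2.83% of all profiles, and edgeR with the replicate block called 5 against 3.88%. All of these were 3p profiles of miR-125 or mze-miR-125c.

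The salmon passenger ssa-miR-125a-2-3p had the lowest adjusted p. It read 180.6, 169.5 and 188.6 normalised counts under CTR, 336.7, 412.3 and 305.5 in AA, and 250.0, 224.3 and 256.9 in IGF1. AA was above IGF1 and IGF1 above CTR in every library, with no overlap between any 2 groups. The log2 fold change for AA against CTR was 0.97 (SE 0.16, adjusted p by edgeR 0.00485), and it stayed called with any 1 of the 9 libraries left out. IGF1 against CTR gave 0.43 (SE 0.16, adjusted p 0.571 by edgeR), and AA against IGF1 gave 0.53 (SE 0.16, adjusted p 0.137 by edgeR). For AA against IGF1 the adjusted p was 0.024 with the replicate block and 0.0261 in DESeq2, in both cases with a log2 difference of 0.53, under the minimum of 0.55, so neither was a call. With the block on distinct profiles the difference was 0.56 and was called (adjusted p 0.0255).

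A related salmon passenger, ssa-miR-125a-3p, read 209.4, 256.1 and 279.3 normalised counts under CTR, 394.7, 450.8 and 390.1 in AA, and 260.9, 264.6 and 321.8 in IGF1. The AA libraries stood above all others, while CTR and IGF1 overlapped. For AA against CTR the log2 difference was 0.73, with an SE of 0.16 and an edgeR adjusted p of 0.0288. Against IGF1 the difference was 0.55 (SE 0.16), with an adjusted p of 0.127 in edgeR and 0.0187 with the replicate block, where it was called.

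The zebrafish passenger dre-miR-125b-1-3p was higher under both supplements. It read 84.5, 91.2 and 106.5 normalised counts under CTR, 149.2, 171.3 and 176.6 in AA, and 195.3, 143.9 and 148.5 in IGF1. Every AA and every IGF1 library lay above every CTR library, and AA and IGF1 overlapped. The log2 fold change was 0.82 for AA against CTR (SE 0.19, adjusted p by edgeR 0.0319). For IGF1 against CTR it was 0.79 (SE 0.19), with an adjusted p of 0.105 in edgeR, 0.0165 with the replicate block and 0.00643 in DESeq2. AA and IGF1 differed by 0.03 (SE 0.19, adjusted p by edgeR 0.942).

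Its near copy mze-miR-125c read 83.6, 88.4 and 108.0 normalised counts under CTR, 149.96, 174.5 and 172.3 in AA, and 199.2, 151.9 and 148.5 in IGF1. The log2 fold change was 0.83 for AA against CTR (SE 0.19, adjusted p by edgeR 0.0309). IGF1 against CTR gave 0.84 (SE 0.19), with an adjusted p of 0.0774 in edgeR, 0.0114 with the block and 0.00253 in DESeq2. Because mze-miR-125c and dre-miR-125b-1-3p hold nearly the same counts, they are not separate evidence.

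The second zebrafish passenger, dre-miR-125b-2-3p, read 17.3, 27.6 and 50.4 normalised counts under CTR, 80.9, 78.2 and 65.0 in AA, and 32.0, 28.2 and 43.6 in IGF1. AA stood above both other groups, and CTR and IGF1 overlapped. Its log2 fold change was the highest among members, at 1.28 for AA against CTR (SE 0.33) and 1.13 for AA against IGF1 (SE 0.32). edgeR's adjusted p was 0.0603 and 0.113, so neither passed, while the replicate block gave 0.00945 and 0.0218 and DESeq2 gave 0.0132 and 0.0425. IGF1 against CTR gave 0.15 (SE 0.35, adjusted p by edgeR 0.953).

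For 2 miR-125 passengers no test passed in any comparison. The cod entry gmo-miR-125a-3p read 260.3, 287.4 and 302.3 normalised counts under CTR, 290.4, 327.7 and 277.4 in AA, and 330.5, 357.1 and 302.9 in IGF1. Its log2 fold change was 0.07 for AA against CTR and 0.22 for IGF1 against CTR (SE 0.15, adjusted p by edgeR 0.929 and 0.953). The salmon entry ssa-miR-125b-2-3p read 115.3, 112.4 and 136.7 normalised counts under CTR, 99.97, 127.4 and 115.9 in AA, and 132.0, 118.7 and 130.8 in IGF1, with overlapping groups in all comparisons. These 2 profiles were chosen for description after their values were seen.

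**Figure D3:**
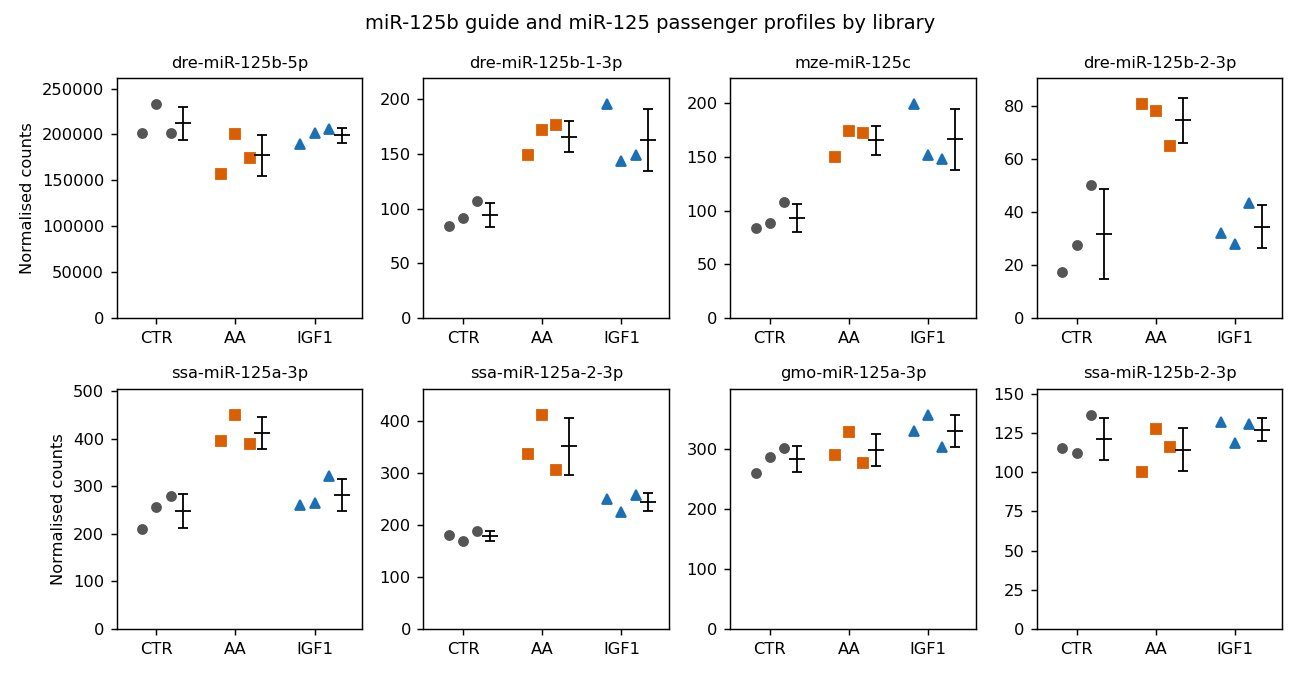
Normalised counts of the miR-125b guide and 7 passenger profiles, 1 point per library (circles CTR, squares AA, triangles IGF1), with the group mean ± SD beside the points; each axis starts at 0. In 5 of the 7 passenger profiles all AA points lie above all CTR points, beside 69 of all 953 profiles. Among these 5, dre-miR-125b-1-3p and mze-miR-125c are near copies. The AA and CTR points of gmo-miR-125a-3p and ssa-miR-125b-2-3p overlap.

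Over the 6 miR-125 3p profiles the median log2 fold change was 0.77 for AA against CTR, 0.20 for IGF1 against CTR and 0.28 for AA against IGF1. The 192 3p profiles of other miRNAs had a median of 0.00 for AA against CTR, and 6 of them were called, all higher. That list was taken by arm alone, so it can hold guide strands as well as passengers. Its means reached 1222066 normalised counts. Of its 6 calls, dre-miR-133a-3p, dre-miR-133b-3p, dre-miR-206-3p and ola-miR-1-3p were of the muscle list, and the others were dre-miR-181a-3p and ssa-miR-21b-3p. DESeq2 called 8 of the 192, adding gmo-let-7a-3-3p and gmo-miR-21-3p. The replicate block called 9, adding dre-miR-181a-5-3p to those 8. The muscle list was higher in the same AA libraries, at 0.194 to 0.276% of zebrafish counts against 0.0439 to 0.0683% in CTR, and its part in the passenger result was not tested.

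All 4 calls were also made with RLE factors, with upper-quartile factors and without composition factors. Leaving out libraries ended 3 of the 4. Without CTR replicate 1, 2 or 3, or AA replicate 2 or 3, the calls of dre-miR-125b-1-3p, mze-miR-125c and ssa-miR-125a-3p were lost, with adjusted p up to 0.161, 0.162 and 0.114. The call of mze-miR-125c was also lost without IGF1 replicate 2. Without any 1 of those 5 CTR or AA libraries the number of members called was 1 or 2.

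In IGF1 against CTR, edgeR called 0 members, where 0.21% of all profiles were called. At an unadjusted p under 0.05 it had 3 of 39 members, beside 73 of all 953 profiles. DESeq2 called 2 members against 1.15% of all profiles, and the replicate block called 2 against 1.57%. These were dre-miR-125b-1-3p and its near copy. In AA against IGF1, edgeR called 0 members, against 2.1% of all profiles. At an unadjusted p under 0.05 it had 3 of 39 members, beside 91 of all 953 profiles. DESeq2 called 1 (dre-miR-125b-2-3p) against 2.94%, and the replicate block called 2 (dre-miR-125b-2-3p and ssa-miR-125a-3p) against 4.83%.

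Group overlap was also counted from the normalised values alone, which depend on the size factors. In AA against CTR 8 of 39 members did not overlap, beside 11.9% of all profiles. The 5 higher in AA were miR-125 passengers, mze-miR-125c included, and the 3 lower were the guides dre-miR-125b-5p, dre-miR-125c-5p and gmo-miR-125a-5p. For gmo-miR-125a-5p the highest AA library (14929) was barely below the lowest CTR library (14960). For IGF1 against CTR 4 of 39 members were separated, close to the 10.8% over all profiles. These 4 were passengers, all higher, with the near copies dre-miR-125b-1-3p and mze-miR-125c among them. For gmo-miR-125a-3p the lowest IGF1 library (302.9) was barely above the highest CTR library (302.3). In AA against IGF1 6 of 39 were separated, not far from the 12.2% over all profiles. Of these, 3 passengers were higher in AA and 3 guides (ccr-miR-100, dre-miR-125c-5p and ipu-miR-99b) were lower. The highest AA and lowest IGF1 libraries were close for ccr-miR-100 (39911 and 40219) and for ipu-miR-99b (45771 and 45974). AA against CTR and IGF1 against CTR share the CTR libraries.

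Dividing a passenger count by a 5p count within a library removes the size factor. Both dre-miR-125b-1-3p and dre-miR-125b-2-3p were divided by dre-miR-125b-5p, so these ratios do not give the arm use of a single hairpin. In CTR, dre-miR-125b-1-3p made up 0.0419, 0.0391 and 0.0527% of the dre-miR-125b-5p count. In AA it made up 0.0951, 0.0854 and 0.102%, and in IGF1 0.103, 0.0714 and 0.0722%. The log2 ratio was higher by 1.08 in AA than in CTR (SE 0.15) and by 0.87 in IGF1 than in CTR (SE 0.22), with no overlap. AA and IGF1 overlapped, 0.21 apart (SE 0.19).

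For dre-miR-125b-2-3p the ratio was 0.00857, 0.0119 and 0.0249% in CTR, 0.0515, 0.0390 and 0.0374% in AA, and 0.0169, 0.0140 and 0.0212% in IGF1. AA was apart from both other groups, by 1.63 on the log2 scale from CTR (SE 0.48) and by 1.30 from IGF1 (SE 0.23). The salmon passenger ssa-miR-125a-2-3p rested at 0.0852 ± 0.011% under CTR, 0.199 ± 0.0204% in AA and 0.123 ± 0.0103% in IGF1 as mean ± SD (n = 3), with all 3 groups apart. For ssa-miR-125a-3p the ratio was 0.117 ± 0.0184% in CTR, 0.234 ± 0.0156% in AA and 0.142 ± 0.0132% in IGF1. Its AA libraries were above the rest, and CTR and IGF1 overlapped.

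Of the 6 ratios, the 4 described above were taken over entries holding the dre-miR-125b-5p profile. That profile itself gave a log2 fold change of −0.27 for AA against CTR. The other 2 ratios were taken over the less abundant gmo-miR-125a-5p profile and were higher in level. For gmo-miR-125a-3p the ratio was 1.81 ± 0.180% in CTR, 2.31 ± 0.145% in AA and 2.23 ± 0.323% in IGF1. The log2 difference between AA and CTR was 0.35 (SE 0.10) without overlap. In edgeR the passenger alone gave 0.07 for AA against CTR, and its 5p entry gave −0.28. For ssa-miR-125b-2-3p it was 0.780 ± 0.125%, 0.885 ± 0.0556% and 0.853 ± 0.0256%, and the groups overlapped in all comparisons. The exact two-sided permutation test gave p = 0.1, the smallest it can give with n = 3 a group, for each of the 10 of 18 comparisons without overlap, and the Benjamini-Hochberg adjusted p over the 18 was 0.18.

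**Figure D4:**
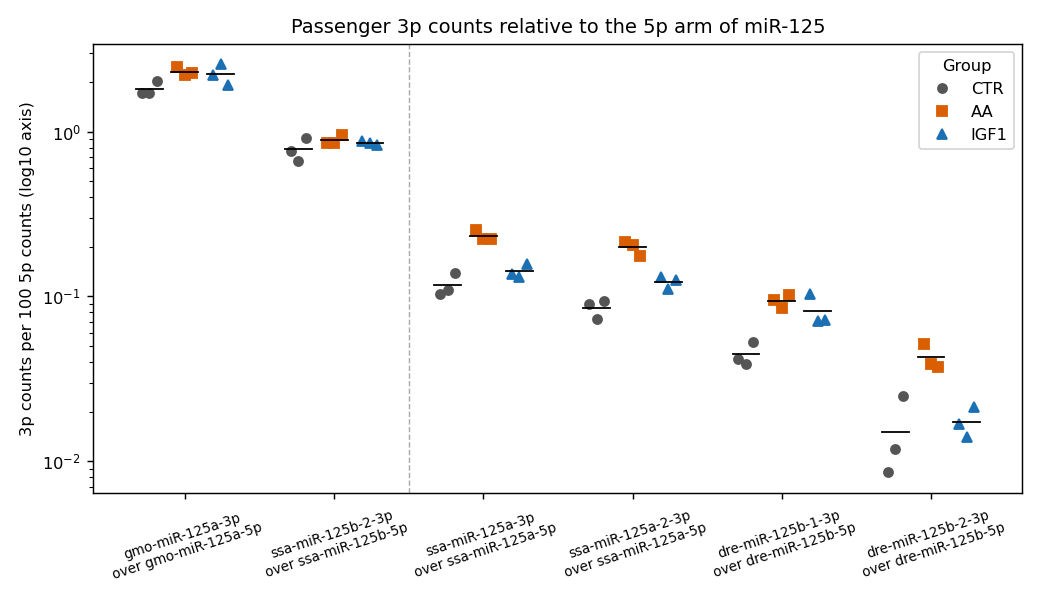
3p counts per 100 5p counts within each library for 6 miR-125 pairs (log10 axis), 1 point per library with bars at the group means; circles are CTR, squares AA and triangles IGF1. Left of the dashed line the 5p entry holds the gmo-miR-125a-5p profile and right of it the dre-miR-125b-5p profile. On the right AA stands above CTR in all 4 pairs.

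Related lists were counted the same way. let-7, whose genes lie beside those of miR-99, miR-100 and miR-125, had 108 profiles and a median log2 fold change of −0.03 for AA against CTR, 0.07 for IGF1 against CTR and −0.09 for AA against IGF1. edgeR called 0 let-7 profiles in each comparison, beside 2.31, 0.21 and 2.1% of all profiles. At an unadjusted p under 0.05 it had 5, 7 and 2 of them, beside 60, 73 and 91 of all 953 profiles. DESeq2 called 1, 1 and 0 let-7 profiles, beside 2.83, 1.15 and 2.94% of all profiles. The replicate block called 1 let-7 profile higher in AA and 2 higher in IGF1 than in CTR, and 1 lower in AA than in IGF1. Of all profiles the block called 3.88, 1.57 and 4.83%. The 18 let-7 3p profiles had medians of 0.18, 0.30 and −0.01. All 5, 7 and 2 let-7 profiles at an unadjusted p under 0.05 in edgeR were among these 18. The let-7 calls were 3p profiles too, gmo-let-7a-3-3p in DESeq2 and with the block, and ssa-let-7g-3p with the block only. miR-10, related to miR-99 and miR-100 in sequence, had 47 profiles with medians of −0.14, 0.09 and −0.18. edgeR called 0 of the miR-10 profiles, with 0, 0 and 10 at an unadjusted p under 0.05, and DESeq2 called 0, 0 and 5, the 5 lower in AA than in IGF1. With the replicate block the miR-10 calls were 0, 0 and 10, the 10 lower in AA than in IGF1. In AA against IGF1, 2.94% of all profiles were called by DESeq2 and 4.83% with the block. The called entries carry the names miR-10b or miR-10d in several species, so they are not 10 separate findings.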

How the data were processed

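Small RNAs were sequenced in 9 libraries of pacu myotube cultures (TruSeq small RNA kit). Per the labels and the study's methods, the authors checked reads with FastQC 0.11.8, trimmed them with Trimmomatic, aligned them with Bowtie2 to mature miRNAs of 13 teleosts and normalised them with DESeq2; GRCz11 is listed without a role. The sharing of a read among matching entries was not given in the sources used here. The authors deposited raw counts for 3579 entries. The deposited normalised signal is those counts divided by a size factor per library (0.695 to 1.36, whole counts recovered to within 0.00057), for 1769 entries, those whose mean reached 10 counts. All counts summed to 81685427 to 137767439 per library because a read counts under several species, so shares used zebrafish entries; arm ratios used raw counts.

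Raw counts were tested in edgeR 4.0.16 (R 4.3.3, quasi-likelihood, TMM factors, group as the term, 9 libraries in 1 fit, Benjamini-Hochberg over 1769 entries). A call needed an adjusted p of at most 0.05 and a log2 fold change of at least 0.55 in either direction, the study's thresholds. DESeq2 1.42.0, other scalings and filters, and leaving out each library were alternatives. Exact permutation tests were run in scipy 1.17.1. The code was tested on simulated data. Libraries of 1 group differed by more than counting noise.

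The replicate numbers paired the libraries: over 953 profiles, deviations from the group means correlated at 0.287 to 0.567 in the 9 same-number pairs and at −0.484 to 0.151 in the other 18. The source of this pairing is the data, not the labels, so the block was kept as an alternative.

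Members and lists were chosen with earlier results of these data known. Profiles named with values were those called by any fit and the most abundant of each number, letter and arm. The profiles gmo-miR-125a-3p, ssa-miR-125b-2-3p, dre-miR-125c-5p, dre-miR-125a and ola-miR-100 were added after their values were seen. So were the groups given only as means or by overlap.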

Additional observations from a re-analysis of the deposited data

Results flagged for a closer look

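The salmon passenger entry ssa-miR-100a-2-3p lay below the mean of 10 counts and entered no comparison. It held 3, 4 and 3 raw counts in the AA libraries, 2, 2 and 1 in CTR, and 4, 1 and 4 in IGF1. These counts are not scaled by the size factors, and the difference was not tested.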

How the results depend on the processing

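AA against CTR gave 4 calls, 5 with DESeq2, the replicate block (alone, in DESeq2 or on distinct profiles), no composition factors or no filter (the fifth being dre-miR-125b-2-3p), 2 with zebrafish entries alone (8 tested), and 1 to 4 when 1 library was left out. IGF1 against CTR gave 0 calls, and 2 with DESeq2, with the replicate block, with both, and with the block on distinct profiles (added after seeing the data). AA against IGF1 gave 0 calls, 1 with DESeq2, 2 without composition factors, 2 with the replicate block (alone or in DESeq2), 3 with the block on distinct profiles (dre-miR-125b-2-3p, ssa-miR-125a-2-3p and ssa-miR-125a-3p), and 0 to 1 with 1 library left out. Every log2 fold change whose direction turned was one without a call. Without composition factors, AA against CTR became 0.0331 for dre-miR-100-5p, 0.11 for dre-miR-100-3p, 0.0979 for ssa-miR-125b-2-3p, 0.0356 for ipu-miR-99b and 0.0913 for dre-miR-99. In the same setting AA against IGF1 became 0.0307 for dre-miR-100-5p, 0.0078 for gmo-miR-100b-5p, 0.0616 for ola-miR-125c, 0.0578 for dre-miR-125b-5p, 0.0216 for gmo-miR-125a-5p, 0.0827 for gmo-miR-125a-3p, 0.20 for mze-miR-125c, 0.065 for ssa-miR-125b-2-3p, 0.0547 for ipu-miR-99b and 0.12 for dre-miR-99. IGF1 against CTR there became −0.0311 for gmo-miR-100b-5p and −0.019 for ipu-miR-99b. Upper-quartile factors gave −0.0031 for dre-miR-100-5p, −0.0283 for gmo-miR-100b-5p and −0.027 for ipu-miR-99b in IGF1 against CTR, and 0.071 for mze-miR-125c in AA against IGF1. Distinct profiles gave −0.0029 for gmo-miR-100b-5p and −0.0045 for ipu-miR-99b in IGF1 against CTR, and 0.0225 for mze-miR-125c in AA against IGF1; with the block added these were −0.0012 for ipu-miR-99b and 0.0222 for mze-miR-125c. Fitting 2 groups gave 0.014 for mze-miR-125c in AA against IGF1. dre-miR-99 in IGF1 against CTR became 0.0074 with DESeq2 or RLE factors, 0.0176 with a mean of at least 50 counts, 0.0133 with 2 groups, 0.0003 with the replicate block and 0.0085 with both DESeq2 and the block. With 1 library left out, IGF1 against CTR ran from −0.0542 to 0.13 for dre-miR-100-5p, −0.12 to 0.14 for gmo-miR-100b-5p, −0.41 to 0.0025 for dre-miR-100-3p, −0.15 to 0.59 for dre-miR-125b-2-3p, −0.024 to 0.065 for ipu-miR-99b and −0.0765 to 0.059 for dre-miR-99. AA against CTR ran from −0.35 to 0.0303 for gmo-miR-100b-5p, −0.23 to 0.0807 for dre-miR-100-3p and −0.16 to 0.0365 for ssa-miR-125b-2-3p. AA against IGF1 ran from −0.36 to 0.0033 for gmo-miR-100b-5p, −0.0915 to 0.32 for dre-miR-100-3p, −0.071 to 0.14 for mze-miR-125c and −0.0402 to 0.18 for dre-miR-125b-1-3p. The member share differed by −0.217 to 0.217 percentage points (AA against CTR) and −0.374 to 0.0601 (IGF1 against CTR), and the log2 arm ratio by −0.0084 to 0.76 for dre-miR-125b-2-3p (IGF1 against CTR) and −0.0385 to 0.17 for gmo-miR-125a-3p (AA against IGF1). The cause of these shifts was not tested.

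The miR-125 passengers rest on 18 to 537 raw counts a library, and 3 libraries a group limit every test. The paired sign-flip test of the arm ratios with the replicate block cannot go below p = 0.25 (exact).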
